A study of Mus musculus with 4 samples.

Results

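The genes described here are 9 markers of cortical layers and of glutamatergic neurons, Cux2, Cux1, Rorb, Lamp5, Fezf2, Bcl11b, Foxp2, Tle4 and Slc17a7, chosen by symbol out of 32285 genes in the files, of which 23415 had at least 1 unique molecular identifier (UMI, a tag that counts each captured RNA molecule once). Their RNA was mapped in mouse brain after photothrombotic (PT) injury, in which light-activated clotting of surface vessels produces a focal cortical infarct. Fresh-frozen slices were placed on Visium arrays, where each position in a hexagonal grid, a spot, records the polyadenylated RNA released above it and can span several cells or parts of them. 4 capture areas carried 2 slices each, 1 slice per mouse. The 1 slice at rest (uninjured) and the 1 slice at 2 days post injury (dpi) shared an area, and the 2 slices at 7 dpi, the 2 slices at 21 dpi and 2 slices from Cthrc1(creER); R26(DTA) mice at 21 dpi, called deleter slices here, filled 1 area each. All other mice were wild type (WT). Which of the 2 tissue pieces in the shared area is which is not in the labels, and the piece of 1017 spots was taken as rest and the piece of 1726 spots as 2 dpi. In deleter mice, the tamoxifen-dependent Cre recombinase expressed from Cthrc1, a gene of early myofibroblasts, switches on diphtheria toxin A from the Rosa26 locus. The submitters left these 2 mice out because no deletion was detectable, and the age and sex of the mice are not given in the labels.

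The mammalian cortex is built of layers whose projection neurons differ in birth order, wiring and transcription factors. Cux2 and Cux1 are homeodomain factors of upper-layer neurons, Rorb is a nuclear receptor enriched in the input layer, and Lamp5 is a lysosome-associated membrane protein found in upper-layer neurons and in a class of interneurons. Fezf2 and Bcl11b (also called Ctip2) are zinc-finger factors of subcortically projecting neurons in the deep layers, and Bcl11b is also a marker of striatal projection neurons. Foxp2, a forkhead factor, and Tle4, a Groucho-family corepressor, mark corticothalamic neurons of the deepest layer, and Foxp2 is also made in striatum and thalamus. Slc17a7 encodes VGLUT1, the transporter that loads glutamate into synaptic vesicles of most cortical excitatory neurons. Several of these genes are not restricted to neurons: Cux1 in particular is widely expressed.

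In the mm10 (GRCm38) annotation, Cux2 (chr5:121856366-122050102) and Cux1 (chr5:136248135-136567490) lie on the same chromosome, as do Rorb (chr19:18930605-19111196) and Tle4 (chr19:14448150-14598051). The other members are Lamp5 (chr2:136052239-136069917), Fezf2 (chr14:12342094-12348189), Bcl11b (chr12:107910403-108003602), Foxp2 (chr6:14901349-15441977) and Slc17a7 (chr7:45163949-45176142). RefSeq promoter windows of GRCm38.p6, from 250 bases before to 50 after a start site, were held for 8 of the 9 members in 12 entries, with no entry for Foxp2. The windows of 4 members are shown because these genes had a single listed start and differed from distant tissue both in fibrotic spots and in the tissue next to them, 3 downwards and Cux1 upwards. Capitals mark CG dinucleotides, the sites of mammalian DNA methylation.
Slc17a7, chr7:45163671-45163970, plus strand: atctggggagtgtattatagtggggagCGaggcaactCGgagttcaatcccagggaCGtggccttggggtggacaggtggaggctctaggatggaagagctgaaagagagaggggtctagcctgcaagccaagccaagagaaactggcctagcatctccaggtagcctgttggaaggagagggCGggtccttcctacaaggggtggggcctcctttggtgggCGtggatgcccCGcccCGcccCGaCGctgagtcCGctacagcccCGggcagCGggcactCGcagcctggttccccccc
Fezf2, chr14:12345816-12346115, minus strand: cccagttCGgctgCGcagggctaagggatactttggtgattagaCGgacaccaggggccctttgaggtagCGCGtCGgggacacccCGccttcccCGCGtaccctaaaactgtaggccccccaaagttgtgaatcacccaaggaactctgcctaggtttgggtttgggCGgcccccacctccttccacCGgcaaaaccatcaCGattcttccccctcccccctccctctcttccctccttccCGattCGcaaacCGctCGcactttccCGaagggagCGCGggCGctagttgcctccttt
Bcl11b, chr12:108003365-108003664, minus strand: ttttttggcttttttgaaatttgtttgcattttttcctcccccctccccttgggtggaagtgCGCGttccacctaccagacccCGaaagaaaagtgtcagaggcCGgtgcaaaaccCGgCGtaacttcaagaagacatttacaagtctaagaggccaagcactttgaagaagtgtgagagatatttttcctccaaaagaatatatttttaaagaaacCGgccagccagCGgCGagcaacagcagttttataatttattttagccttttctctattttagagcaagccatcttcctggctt
Cux1, chr5:136565932-136566231, minus strand: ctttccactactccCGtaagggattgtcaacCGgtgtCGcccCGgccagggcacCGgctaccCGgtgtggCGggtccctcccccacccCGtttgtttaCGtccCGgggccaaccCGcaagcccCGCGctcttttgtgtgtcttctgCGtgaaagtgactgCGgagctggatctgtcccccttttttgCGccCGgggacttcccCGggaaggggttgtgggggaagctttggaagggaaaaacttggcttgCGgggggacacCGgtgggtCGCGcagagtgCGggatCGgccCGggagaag
The windows hold 13 CG in Slc17a7, 20 in Fezf2, 9 in Bcl11b and 25 in Cux1, against a median of 7 (quartiles 3 and 20) over 32851 windows of the same length. The letters CAGATG, an E-box of the kind read by neuronal bHLH factors, or their reverse complement CATCTG occurred in 2 of the 12 member windows, the second listed starts of Lamp5 and Cux2, and in 17.2% of all windows. None of the 4 windows shown holds them.

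The slices held 827 to 1726 spots and 11332780 to 23677298 UMIs. The median spot had 12447 to 16158 UMIs in 7 slices and 2634 in the slice at 2 dpi, in which 21.7% of spots had under 1000 UMIs, against at most 2.46% elsewhere. Capture areas shared 1564 to 1959 barcodes in pairs, which is by design, since a Visium barcode is an array position and not a cell. The slices covered different structures. Spots in which striatal neuron markers reached 20 UMIs per 10000 over the spot and its neighbours made up 0 to 24.3% of a slice, and the choroid plexus list summed to 3.4 to 192 UMIs per 10000. Spots with at least 5 Col1a1 UMIs per 10000 (Col1a1 encodes a chain of collagen 1, made by fibroblasts) were called fibrotic. They numbered 3 at rest, 26 at 2 dpi, 112 and 392 at 7 dpi, 170 and 203 at 21 dpi, and 193 and 274 in the deleter slices. The uninjured slice thus met the cut too, so fibrotic here means a Col1a1 level and not a proven scar. In the slice at rest and in slice 1 at 7 dpi the median fibrotic spot lay at the tissue edge. Cthrc1 stood at 1.16 and 1.09 UMIs per 10000 in fibrotic spots of the 7 dpi slices, 0.219 and 0.175 at 21 dpi, and 0.101 and 0.132 in the deleter slices.

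Over whole slices, Slc17a7, Lamp5, Rorb and Fezf2 were highest in the slice at rest, and Cux1 and Foxp2 lowest there. Levels are given as UMIs per 10000 UMIs of the slice, and are compared only within a gene, since capture of the RNA's end differs between genes. Slc17a7 was at 4.98 at rest, 2.77 at 2 dpi, 4.01 and 3.96 at 7 dpi, 3.85 and 4.5 at 21 dpi, and 4.05 and 4.46 in the deleter slices. The slice at rest was thus the highest and the slice at 2 dpi the lowest, with the 6 later slices between them. Lamp5 was also highest at rest, at 1.75, and ran from 0.426 to 1.24 in the other slices. Fezf2 was 0.308 at rest and 0.0986 to 0.214 elsewhere, and Rorb 0.538 at rest and 0.232 to 0.487 elsewhere. Foxp2 and Cux1 had the opposite order, with the slice at rest lowest, at 0.146 for Foxp2 against 0.159 to 0.388 in the other 7 slices, and at 0.434 for Cux1 against 0.5 to 0.759. Cux2 (0.172 to 0.304), Tle4 (0.438 to 0.676) and Bcl11b (0.286 to 0.933) had the slice at rest inside their range. A slice with fewer neurons, one with less of the RNA per neuron and one that held other structures cannot be told apart in these sums. The slice at rest and slice 2 at 7 dpi, lowest in Foxp2 (0.146 and 0.159), held 0 striatal spots. Deleter slice 2, highest in Foxp2 (0.388) and Bcl11b (0.933), held 24.3%. Slice 2 at 21 dpi was at 0.386 for Foxp2 and 0.399 for Bcl11b with 5.08% striatal spots. The slice at rest was at 0.627 for Bcl11b with 0 striatal spots. The part of slice content in these orders was not tested.

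**Figure D1:**
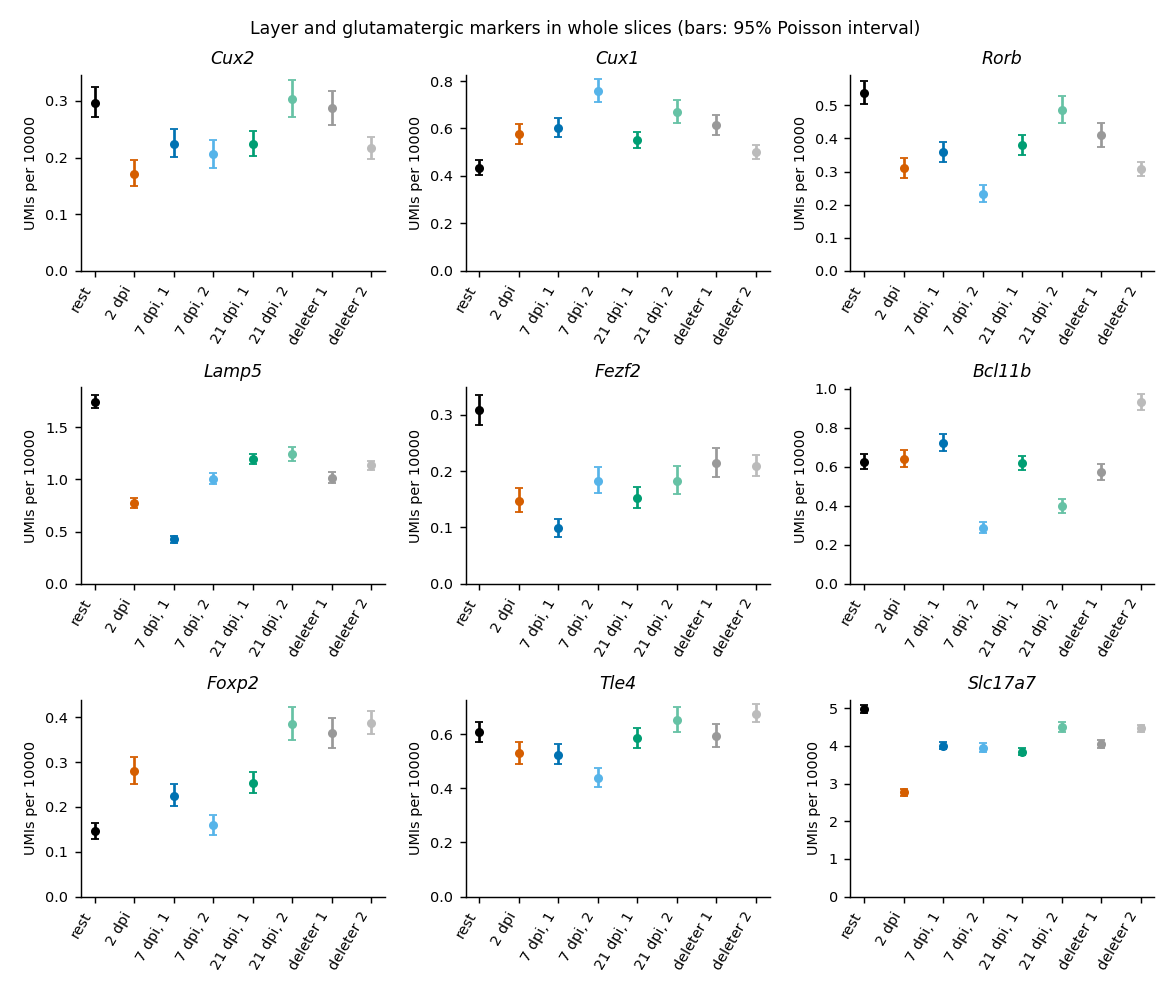
Level of each of the 9 genes in the 8 slices, in UMIs per 10000 UMIs of the slice, with one panel per gene and one point per slice; the bars are exact 95% Poisson intervals, which cover counting error only. Slc17a7 falls from 4.98 at rest to 2.77 at 2 dpi, whereas Foxp2 is 0.146 at rest and 0.28 at 2 dpi.

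At 2 dpi Slc17a7, Lamp5, Fezf2, Rorb and Cux2 were at 0.443 to 0.578 of their level at rest, and Cux1 and Foxp2 were above it. With 1 slice in each group there is no test, and the intervals below are exact and cover counting error only. The ratio of 2 dpi to rest was 0.556 (95% interval 0.534 to 0.578) for Slc17a7, 0.443 (95% interval 0.412 to 0.476) for Lamp5, 0.478 (95% interval 0.403 to 0.566) for Fezf2, 0.576 (95% interval 0.511 to 0.649) for Rorb and 0.578 (95% interval 0.492 to 0.679) for Cux2. It was 0.873 (95% interval 0.791 to 0.963) for Tle4, 1.02 (95% interval 0.93 to 1.12) for Bcl11b, 1.33 (95% interval 1.2 to 1.47) for Cux1 and 1.93 (95% interval 1.63 to 2.28) for Foxp2. The slice at 2 dpi had 223 striatal spots and the slice at rest 0. Without these spots the ratio moved from 1.02 to 0.562 for Bcl11b and from 1.93 to 1.05 for Foxp2, both genes of striatal neurons, and was 1.34 for Cux1 and 0.646 for Slc17a7. Per 100 pan-neuronal UMIs in place of all UMIs, the ratio was 0.958 for Slc17a7, 0.997 for Cux2, 0.994 for Rorb, 0.825 for Fezf2 and 0.763 for Lamp5, each nearer to 1 than over all UMIs. On that scale it was 1.51 for Tle4, 1.76 for Bcl11b, 2.29 for Cux1 and 3.32 for Foxp2.

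Slc17a7 UMIs were also found in spots with little RNA at 2 dpi. Slc17a7 was at 5.27 UMIs per 10000 (95% interval 4.39 to 6.28) in the 375 spots with under 1000 UMIs, 2.66 in the 636 spots with 1000 to under 5000, and 2.73 in the 715 spots with at least 5000. The poor spots rest on 125 Slc17a7 UMIs, and each of the other members on 4 to 25 there. These classes were not split by tissue. Over the whole slice Slc17a7 was at 2.77 with and 3.22 without the striatal spots. Where the RNA of the poor spots came from was not tested. In spots with at least 5000 UMIs in rings 2 to 6 below the tissue edge (a setting chosen after seeing the data), the 2 dpi to rest ratio of Slc17a7 was 0.963 (95% interval 0.902 to 1.03), while that of Lamp5 was 0.521, Rorb 0.442 and Cux2 0.608. There Cux1 was at 0.902, Tle4 at 1.07, Fezf2 at 1.01 and Bcl11b at 0.884 of the level at rest. Foxp2 was at 2.53 (95% interval 1.2 to 5.54), on 13 UMIs at rest and 20 at 2 dpi.

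Between 7 and 21 dpi no member passed the test over whole slices. In edgeR's quasi-likelihood test on the sums of 2 against 2 slices, 6 of 15727 genes passed an adjusted p of 0.05 (0.0382%) and none was a member, 1946 genes had an unadjusted p under 0.05, and DESeq2 called 398 genes and 0 members. All 9 members were in the test. The widest member differences were Lamp5 (log2 fold change 0.72, SE 0.40, adjusted p = 0.55) and Foxp2 (log2 fold change 0.69, SE 0.26, adjusted p = 0.38), and Slc17a7 was the closest to equal together with Bcl11b (0.03, SE 0.12, for Slc17a7 in edgeR, adjusted p = 0.95). Lamp5 differed more between the slices of 7 dpi (0.426 and 1.01) than between the means of the groups, and of the alternatives run passed only without slice 2 at 7 dpi (edgeR adjusted p = 0.044, log2 fold change 1.50), a fit in which the lone 7 dpi slice is assumed to vary as the 21 dpi slices do. Between deleter and WT slices at 21 dpi, 0 of 15708 genes passed in edgeR (0%), 529 had an unadjusted p under 0.05 and DESeq2 called 12, none of them a member. Bcl11b (0.64) and Fezf2 (0.42, log2 scale, deleter over WT) were the widest member differences. Striatal spots, where Bcl11b is also a marker, made up 7.14% and 24.3% of the deleter slices and 7.59% and 5.08% of the WT slices. Without striatal spots 0 genes passed in edgeR. Time and genotype each coincide with the capture area in these comparisons and cannot be told apart from it. In simulated counts the same tests recovered 38.0% of 2-fold changes between 7 and 21 dpi and 70.0% between deleter and WT slices. They also called 11 and 22 unchanged genes, in that order.

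The members differed in depth below the surface, with the upper-layer genes outermost on average over the slices but not in each slice. Depth was given as rings of spots, counted from the edge spots that carried leptomeningeal genes (Slc6a13, Slc47a1, Aldh1a2, Myoc and Col1a2), ring 1 being the edge itself. Edge spots at the border of the array also counted on this axis where they carried these genes. Spots within 2 grid steps of a fibrotic spot were left out. In the slice at rest, the upper-layer factor Cux2 was at 0.667 in rings 2 to 4, 0.635 in rings 5 and 6, 0.325 in rings 7 to 9, 0.106 in rings 10 to 12 and 0.11 in rings 13 and more. Lamp5 was also higher in rings 2 to 6 than further in, with a shallower fall by rings 10 to 12. It was at 3.2 in rings 2 to 4, 3.27 in rings 5 and 6 and 2.05 in rings 7 to 9. Further in, Lamp5 was at 1.64 in rings 10 to 12 and 0.541 in rings 13 and more. Rorb was highest in rings 5 to 9, at 0.472 in rings 2 to 4, 1.08 in rings 5 and 6 and 1.01 in rings 7 to 9. Below these, Rorb was at 0.302 in rings 10 to 12 and 0.25 in rings 13 and more. Fezf2 was highest from ring 7 inward, at 0.0816 in rings 2 to 4, 0.176 in rings 5 and 6, 0.486 in rings 7 to 9, 0.466 in rings 10 to 12 and 0.296 in rings 13 and more. Bcl11b was highest in the deepest class, at 0.141 in rings 2 to 4, 0.181 in rings 5 and 6, 0.414 in rings 7 to 9, 0.488 in rings 10 to 12 and 1.18 in rings 13 and more, and Tle4 was highest in the class above it, at 0.308 in rings 2 to 4, 0.376 in rings 5 and 6, 0.523 in rings 7 to 9, 0.965 in rings 10 to 12 and 0.702 in rings 13 and more. Slc17a7, which is not a layer marker, ranged more narrowly, from 3.85 in rings 2 to 4 to 5.73 in rings 10 to 12. Foxp2 was at 0.0317 in rings 2 to 4 and 0.291 in rings 10 to 12, but its highest value, 0.716, came from ring 1.

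A centre ring was computed for each gene over the same spots, as the mean of the first 12 rings weighted by the gene's level in each. Rings thus counted alike whatever their number of UMIs. Averaged over the 8 slices, this centre was lowest for Cux2 and highest for Bcl11b on this axis. It was 5.6 ± 0.859 rings for Cux2 (mean ± SD, n = 8 slices), 6.18 ± 1.1 for Lamp5, 6.25 ± 0.704 for Cux1, 6.47 ± 1.02 for Rorb, 7.11 ± 0.597 for Slc17a7, 7.37 ± 1.21 for Fezf2, 7.66 ± 0.576 for Tle4, 7.76 ± 1.38 for Foxp2 and 8.14 ± 0.502 for Bcl11b. Neighbours in this order lay within the larger of their SDs of each other. Cux2 and Bcl11b, at its ends, were further apart than the sum of their SDs. Slice 2 at 7 dpi held only 5 spots in rings 2 to 4 on this axis. It had the highest centre of the 8 slices for Cux2 (7.05), Lamp5 (8.01), Cux1 (7.61) and Rorb (8.45). The order of the means did not hold in each slice. Among the exceptions, Fezf2 (5.55) lay outside Cux1 (5.64) in slice 1 at 7 dpi. In deleter slice 2, Fezf2 (6.06) lay outside Lamp5 (6.29) and Cux1 (6.65). With rings counted from any edge the ends differed, with Lamp5 (5.63 ± 0.851) and Cux2 (5.64 ± 0.429) lowest, Foxp2 (8.31 ± 1.32) highest, and Tle4 (7.54), Fezf2 (7.32) and Bcl11b (7.26) below it.

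In the comparison of rings 2 to 4 with rings 7 and more from any tissue edge, over the 6 WT slices with the slice as a block and without spots within 2 of fibrosis, 0 of 12816 genes passed in edgeR (0%). Unadjusted p was under 0.05 for 655 genes (5.11%) and for 6 of the 9 members, and DESeq2 called 46 genes, among them Cux2 and Lamp5. With rings counted from the meningeal edge, 242 genes were higher outside (1.91%) and 319 lower (2.51%) of 12694, and 6 of the 9 members passed. Which surfaces this axis takes in or leaves out was not checked. Col1a2, among the genes that define it, is also a fibroblast gene, so fibrotic edge spots can count toward it. The outer class of slice 2 at 7 dpi held only 5 spots here, and without that slice, left out after seeing the data, 432 genes and the same 6 members passed. Cux2 was 3.92-fold higher in the outer rings (log2 fold change 1.97, SE 0.17, adjusted p = 2.3e-05) and Lamp5 2.69-fold higher (log2 fold change 1.43, SE 0.20, adjusted p = 0.00077). Foxp2 was 5.86-fold lower there (log2 fold change -2.55, SE 0.28, adjusted p = 0.00016), Bcl11b 3.67-fold lower (log2 fold change -1.88, SE 0.20, adjusted p = 0.00014), Fezf2 2.53-fold lower (log2 fold change -1.34, SE 0.28, adjusted p = 0.011) and Tle4 2.05-fold lower (log2 fold change -1.04, SE 0.21, adjusted p = 0.009). Cux1 (0.39, adjusted p = 0.3), Rorb (0.03, adjusted p = 0.99) and Slc17a7 (-0.01) did not pass in edgeR. Of the other upper-layer genes on the list, 5 of 6 tested were higher outside and 0 lower, and of the other deep-layer genes 0 of 12 were higher and 8 lower, with median log2 fold changes of 1.50 and -1.13 against 0.01 over all genes. Markers of other tissue moved with them: 5 of 5 oligodendrocyte genes (median -2.20), 5 of 8 striatal genes (-1.35) and 3 of 5 hippocampal genes (-1.36) were lower in the outer rings, and none was higher. Their part in the deep-layer values, Bcl11b and Foxp2 included, was not tested.

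**Figure D2:**
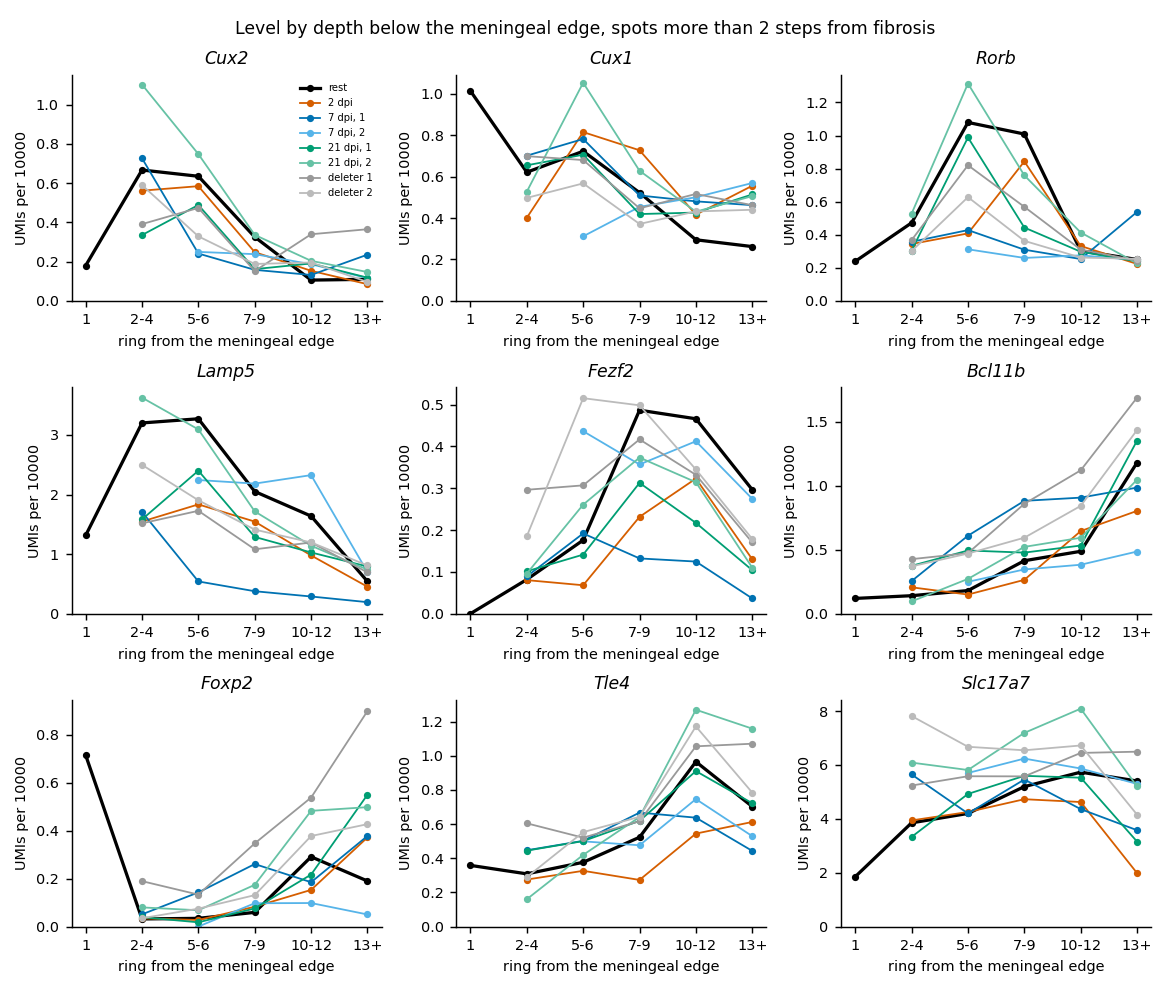
Level of each gene, in UMIs per 10000, against depth in rings from the meningeal edge, with one line per slice and classes of at least 20 spots drawn. At rest Cux2 and Lamp5 are highest in the first 6 rings, Rorb peaks in rings 5 and 6 (1.08), and Fezf2, Bcl11b and Tle4 are highest from ring 7 inward.

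The next comparison set fibrotic spots against spots of the same slice at least 6 grid steps from any fibrotic spot, called far, in the 4 injured WT slices at 7 and 21 dpi. Of 13414 genes tested, 3919 (29.2%) were higher and 3910 (29.1%) lower in fibrotic spots, the background for the members' counts. All 9 members were in the test, 6 were lower, 2 were higher and Cux2 did not pass. Levels are UMIs per 10000 UMIs of the zone. In fibrotic spots Slc17a7 was at 1.23 and 1.81 in the 7 dpi slices and 0.778 and 0.862 in the 21 dpi slices, and in far spots at 4.42 and 6.44 in the 7 dpi slices and 4.65 and 7.25 in the 21 dpi slices. The zones did not overlap, and the difference was 4.8-fold (log2 fold change -2.26, SE 0.24, adjusted p = 0.00019). The deleter slices, which were not in the test, had 1 and 1.52 in fibrotic and 6.65 and 5.41 in far spots.

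The deep-layer genes Bcl11b, Fezf2 and Tle4 were lower in fibrotic spots. Bcl11b was at 0.213 and 0.132 in the 7 dpi slices and 0.188 and 0.13 in the 21 dpi slices there against 0.929 and 0.568 in the 7 dpi slices and 0.879 and 0.549 in the 21 dpi slices in far spots, without overlap (4.2-fold, log2 fold change -2.07, SE 0.12, adjusted p = 3.5e-05). Its fibrotic level was 21.4% to 23.6% of the far level in the 4 slices, the narrowest span of any member that fell. Bcl11b also marks striatal neurons, and striatal spots lay among far spots but not among fibrotic ones. Slice 2 at 7 dpi held 0 striatal spots, and its fibrotic Bcl11b level was 23.2% of the far level. Without striatal spots 6 members were lower and 2 higher in edgeR, beside 3891 genes lower and 3935 higher of 13367. The part of striatal neurons in the Bcl11b difference was not tested. Fezf2 was at 0.0354 and 0.0432 in the 7 dpi slices and 0.0492 and 0.0421 in the 21 dpi slices against 0.0961 and 0.353 in the 7 dpi slices and 0.209 and 0.294 in the 21 dpi slices (5.7-fold, log2 fold change -2.51, SE 0.27, adjusted p = 0.00022). This was the widest point estimate of a fall among the members, within its SE of that of Slc17a7. The fibrotic levels of Fezf2 rest on few UMIs. Tle4 was at 0.319 and 0.332 in the 7 dpi slices and 0.322 and 0.361 in the 21 dpi slices against 0.573 and 0.595 in the 7 dpi slices and 0.757 and 0.906 in the 21 dpi slices (2.01-fold, log2 fold change -1.01, SE 0.14, adjusted p = 0.0007). Tle4 levels in fibrotic spots thus lay within a narrow band in all 4 slices, and 0.311 and 0.322 in the deleter slices.

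Of the upper-layer genes, Lamp5 and Rorb fell. Lamp5 was at 0.201 and 0.357 in the 7 dpi slices and 0.317 and 0.207 in the 21 dpi slices in fibrotic and 0.319 and 1.43 in the 7 dpi slices and 1.04 and 1.62 in the 21 dpi slices in far spots, overlapping through the low far level of slice 1 at 7 dpi (3.79-fold, log2 fold change -1.92, SE 0.31, adjusted p = 0.0014). Rorb was at 0.154 and 0.171 in the 7 dpi slices and 0.165 and 0.249 in the 21 dpi slices against 0.396 and 0.268 in the 7 dpi slices and 0.294 and 0.51 in the 21 dpi slices (1.82-fold, log2 fold change -0.87, SE 0.16, adjusted p = 0.0023). Cux2 was at 0.142 and 0.159 in the 7 dpi slices and 0.107 and 0.0876 in the 21 dpi slices against 0.209 and 0.154 in the 7 dpi slices and 0.156 and 0.366 in the 21 dpi slices, overlapping between the zones (log2 fold change -0.71, SE 0.35, adjusted p = 0.12). The 6 members that fell were lower in each of the 4 WT slices and in both deleter slices. Far spots were deeper than fibrotic ones, with a median ring of 8 to 10 against 1 to 5. The part of depth in the Cux2 value was not tested. Within rings 2 to 8 from the meningeal edge, a restriction added after these values were seen, Cux2 was lower in fibrotic spots (log2 fold change -1.51, SE 0.42, adjusted p = 0.015), as it was against the stricter definition of at least 10 Col1a1 UMIs per 10000 (edgeR, -1.17, adjusted p = 0.0079). In those rings 46.4% of all genes passed, Slc17a7 differed by -2.56, Fezf2 by -3.43 and Bcl11b by -2.05 on the log2 scale, and Tle4 no longer passed (edgeR, -0.47, adjusted p = 0.15). Slice 2 at 7 dpi had only 6 far spots in those rings, and without it the same 8 members passed. Within rings 2 to 6 from any edge, also chosen after seeing the data, all 9 members passed in edgeR, Tle4 and Cux2 included. There 7 members were lower and 2 higher, beside 5900 of 12183 genes past the threshold.

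Cux1 and Foxp2 went the other way. In fibrotic spots Cux1 was at 0.815 and 0.956 in the 7 dpi slices and 0.612 and 0.764 in the 21 dpi slices, and in far spots at 0.489 and 0.47 in the 7 dpi slices and 0.477 and 0.527 in the 21 dpi slices, without overlap (1.66-fold higher, log2 fold change 0.73, SE 0.14, adjusted p = 0.0033), and the deleter slices had 0.646 and 0.697 in fibrotic and 0.443 and 0.406 in far spots. Foxp2 was at 0.272 and 0.355 in the 7 dpi slices and 0.648 and 0.666 in the 21 dpi slices in fibrotic spots and at 0.293 and 0.0504 in the 7 dpi slices and 0.326 and 0.307 in the 21 dpi slices in far spots (2.32-fold higher, log2 fold change 1.21, SE 0.35, adjusted p = 0.021). Foxp2 was higher in 3 of the 4 WT slices, with slice 1 at 7 dpi the exception, and in both deleter slices (0.619 and 0.681 against 0.545 and 0.34). Without slice 1 at 21 dpi it did not pass (edgeR adjusted p = 0.066, log2 fold change 1.29). Within rings 2 to 8 from the meningeal edge the differences were 0.62 for Cux1 (edgeR adjusted p = 0.028) and 2.52 for Foxp2 (adjusted p = 0.0099).

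Within fibrotic tissue, Foxp2 was higher at the tissue edge than further in, in 5 of the 6 injured slices. In fibrotic spots on the tissue edge, ring 1, it was at 0.204 and 0.734 UMIs per 10000 at 7 dpi, 0.907 and 1.38 at 21 dpi, and 0.908 and 1.3 in the deleter slices. In fibrotic spots further in, it was at 0.365 and 0.268 at 7 dpi, 0.574 and 0.552 at 21 dpi, and 0.528 and 0.543 in the deleter slices, lower than at the edge in each slice except slice 1 at 7 dpi. Edge spots without fibrosis in the same slices had 0 to 0.203, the lowest being 0 UMIs in 16 spots of slice 2 at 7 dpi, which allows up to 0.13. The slice at rest showed a like edge signal where leptomeningeal genes were present, at 0.687 (95% interval 0.376 to 1.15) over 33 spots, against 0.241 (0.12 to 0.431) in 52 other edge spots and 0.0317 in rings 2 to 4. The 5 leptomeningeal genes of the marker list (Slc6a13, Slc47a1, Aldh1a2, Myoc and Ptgds) summed to 14.8 to 97.1 UMIs per 10000 in fibrotic spots and 9.39 to 18.1 in far spots. All 5 were tested and higher in fibrotic spots (median log2 fold change 2.17). Their part in the Foxp2 level was not tested.

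**Figure D3:**
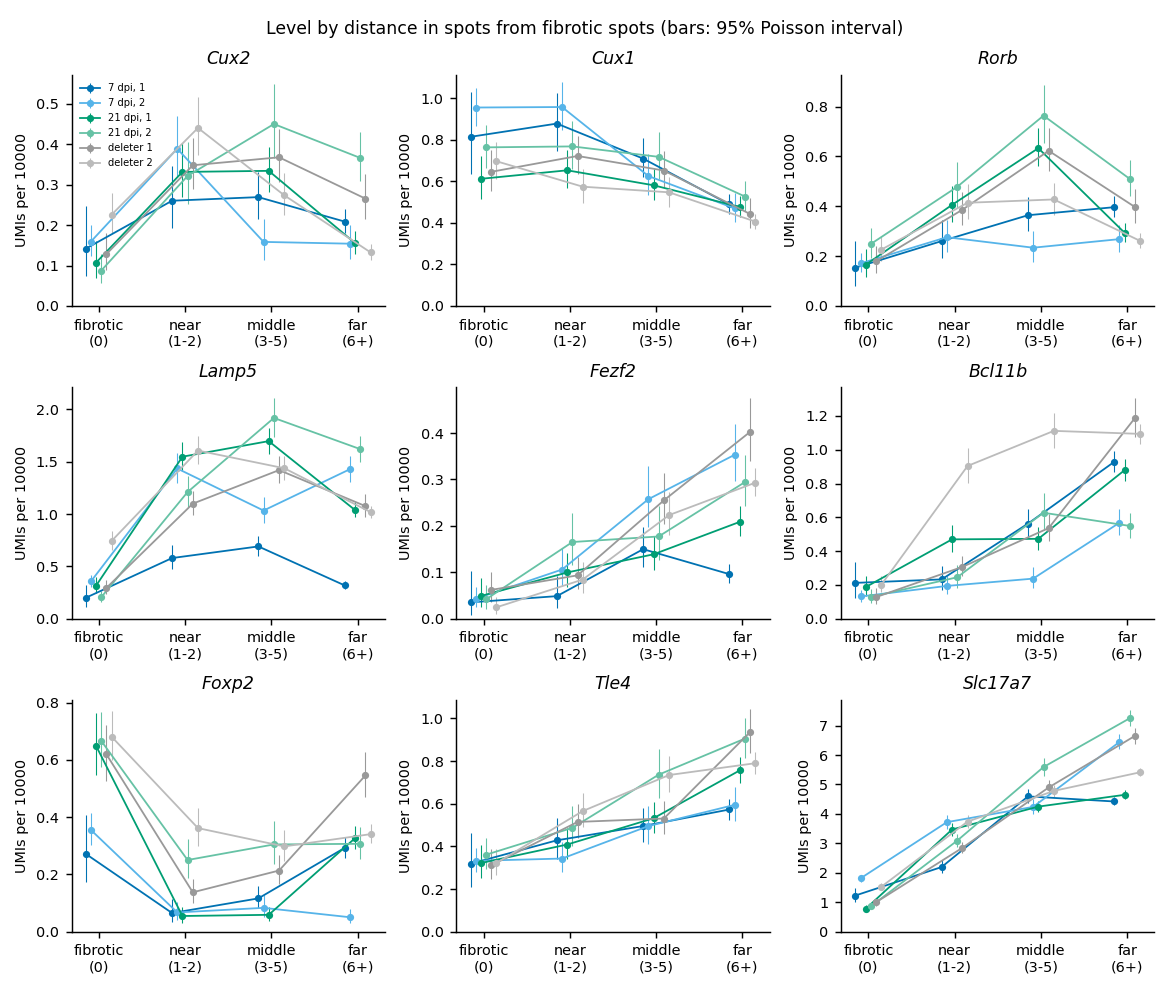
Level of each gene, in UMIs per 10000, in fibrotic spots and in spots at 1 or 2, 3 to 5, and 6 or more grid steps from fibrosis, with one line per injured slice and exact 95% Poisson intervals as bars. Slc17a7 is higher in near than in fibrotic spots in each of the 6 slices, Cux2 and Lamp5 are highest at 1 to 5 steps in each, and Foxp2 is lowest in near spots in 4 of the 6 slices.

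Spots at 1 or 2 grid steps from a fibrotic spot, called near, were lower than far spots in the deep-layer members Fezf2, Bcl11b and Tle4. Foxp2, also a deep-layer member, did not pass the test. Near spots lay further out than far spots, at a median ring of 2 to 9 against 8 to 10, and values at matched depth are given below. Cux1 was higher there, and the other upper-layer members did not pass the test. Neuronal genes in general were lower there too, with 7 of 9 pan-neuronal genes (median log2 fold change -0.84), 6 of 8 GABAergic genes (-0.96), 4 of 7 other glutamatergic genes (-0.87) and 5 of 10 striatal genes (-1.67) lower and none higher, beside 6 of 6 myeloid genes higher (2.57). Against far spots, 1841 of 13085 genes were higher (14.1%) and 1665 lower (12.7%), and of the 9 members 4 were lower, 1 was higher and 4 did not pass. In near spots Slc17a7 was at 2.2 and 3.72 in the 7 dpi slices and 3.47 and 3.09 in the 21 dpi slices, below the far spots of the same slice in each of the 4 slices (1.82-fold, log2 fold change -0.86, SE 0.14, adjusted p = 0.005). Fezf2 was at 0.0488 and 0.106 in the 7 dpi slices and 0.0998 and 0.165 in the 21 dpi slices (2.27-fold lower, log2 fold change -1.18, SE 0.21, adjusted p = 0.0071) and Bcl11b at 0.233 and 0.194 in the 7 dpi slices and 0.47 and 0.246 in the 21 dpi slices (2.59-fold lower, log2 fold change -1.37, SE 0.18, adjusted p = 0.002). Tle4 was at 0.428 and 0.343 in the 7 dpi slices and 0.409 and 0.487 in the 21 dpi slices (1.69-fold lower, log2 fold change -0.75, SE 0.14, adjusted p = 0.0079). Cux1 was at 0.879 and 0.958 in the 7 dpi slices and 0.653 and 0.769 in the 21 dpi slices (1.65-fold higher, log2 fold change 0.72, SE 0.13, adjusted p = 0.008), close to its level in the fibrotic spots. Tle4 did not pass without slice 2 at 7 dpi (edgeR adjusted p = 0.053), and without slice 2 at 21 dpi Cux2 (0.96, edgeR adjusted p = 0.017) and Foxp2 (-1.62, adjusted p = 0.049) did.

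At 3 to 5 steps, Slc17a7 was at 4.59 and 4.24 in the 7 dpi slices and 4.25 and 5.59 in the 21 dpi slices. Its level thus followed the order fibrotic, near, middle and far in 5 of the 6 injured slices, with middle and far exchanged in slice 1 at 7 dpi. Lamp5 was at 0.691 and 1.03 in the 7 dpi slices and 1.7 and 1.92 in the 21 dpi slices in these middle spots and Cux2 at 0.269 and 0.158 in the 7 dpi slices and 0.334 and 0.45 in the 21 dpi slices. Both were highest in near or middle spots, not in far spots, in each of the 6 slices. For Lamp5 in slice 2 at 7 dpi, near (1.44) and far spots (1.43) were nearly equal. These levels across distance are given as a description.

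The remaining upper-layer members did not pass. Cux2 was at 0.26 and 0.389 in the 7 dpi slices and 0.332 and 0.322 in the 21 dpi slices in near spots (log2 fold change 0.64, SE 0.25, adjusted p = 0.095), above the far spots in 3 of the 4 WT slices, and passed when the deleter slices were added (edgeR, 0.83, adjusted p = 0.018). Lamp5 differed by 0.24 (SE 0.22) and Rorb by -0.03 (SE 0.17) on the log2 scale, and Foxp2 was at 0.0651 and 0.0672 in the 7 dpi slices and 0.0547 and 0.25 in the 21 dpi slices (log2 fold change -1.18, SE 0.45, adjusted p = 0.091). The UMIs of the 4 upper-layer members (Cux2, Cux1, Rorb and Lamp5) numbered 2.55, 4.3, 2.84 and 2.42 times those of the 4 deep-layer members in the near spots of the 4 slices, and 0.748, 1.48, 0.905 and 1.47 times in the far spots, given as a description in the order of slices 1 and 2 at 7 dpi and 1 and 2 at 21 dpi. Each slice had the higher ratio near fibrotic spots. Cux1, itself higher in near spots and not restricted to neurons, is counted among the upper-layer UMIs. Near spots lay at a median ring of 2 to 9 and far spots at 8 to 10. Distance from fibrotic spots and depth thus cannot be told apart in this ratio. Within rings 2 to 8 from the meningeal edge, chosen after seeing the data, 16.1% of genes passed between near and far spots, and Fezf2 (-1.59, adjusted p = 0.0017), Bcl11b (-1.18, adjusted p = 0.0093), Slc17a7 (-0.78, adjusted p = 0.006) and Cux1 (0.71, adjusted p = 0.0089) passed in edgeR. Tle4 did not (-0.16, adjusted p = 0.64 in edgeR), and Foxp2 fell below the filter on low counts. Without slice 2 at 7 dpi the same 4 members passed in those rings. Within rings 2 to 6 from any edge, 2.96% of genes passed and of the members only Bcl11b did (edgeR, -2.07, adjusted p = 0.014).

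**Figure D4:**
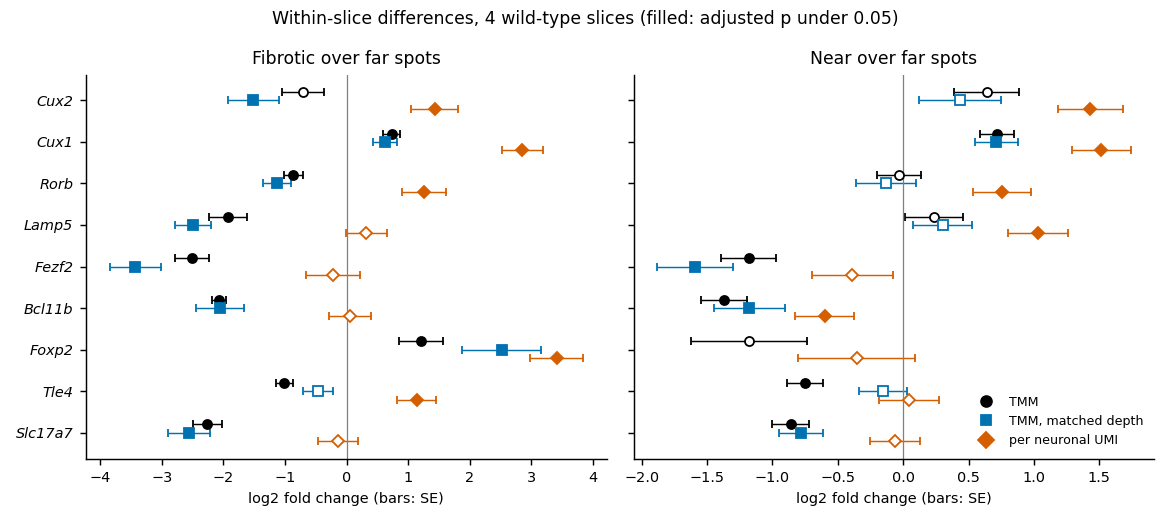
Log2 fold change with its standard error for each gene, fibrotic over far and near over far in the 4 injured WT slices, in the edgeR test over whole zones, within rings 2 to 8 from the meningeal edge, and with counts scaled to neuronal UMIs; filled points have an adjusted p under 0.05. Slc17a7 is at -2.26 in fibrotic spots and -0.86 in near spots over whole zones, and at -0.14 and -0.07 per neuronal UMI.

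Other neuronal genes were low in fibrotic spots as well. Of the 9 pan-neuronal genes on the list (Snap25, Syt1, Rbfox3, Map2, Nefl, Nefm, Stmn2, Thy1 and Uchl1), 9 were lower, with a median log2 fold change of -1.95, and Nefm (-2.76), Syt1 (-2.44) and Snap25 (-2.28) moved furthest. All 7 other glutamatergic genes were lower (median -2.19), among them Slc17a6 (-2.66), which encodes VGLUT2. Of 8 GABAergic genes 7 were lower (median -1.85), led by Gad1 (-2.24), which makes GABA, and Lhx6 did not pass. Of the 7 other upper-layer genes tested 3 were lower and 1 higher (median -0.83), and of 13 other deep-layer genes 8 were lower and 3 higher (median -1.50). The lower ones included Syt6 (-2.74), Rprm (-2.71) and the T-box factor Tbr1 (-2.52). The higher ones were Stard8 among the upper-layer genes (1.44) and Sla (2.27), Ccn2 (1.28) and Sulf2 (1.04) among the deep-layer genes. Ccn2 is also a matrix-associated growth factor of fibroblasts, Sla a signalling adaptor of leukocytes and Sulf2 a heparan sulfatase. The median over all genes was -0.02. In near spots 9 of 12 other deep-layer genes tested were lower and 1 higher (median -0.93), against 1 lower and 1 higher of 7 other upper-layer genes (median 0.14) and -0.04 over all genes.

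A UMI share depends on what else a spot holds. The 6 myeloid genes on the list summed to 85.9 to 118 UMIs per 10000 in fibrotic spots of the WT slices and 4.12 to 15.7 in far spots, and the 9 pan-neuronal genes to 12.2 to 19 and 44.4 to 87.3. When counts were instead scaled to the pan-neuronal UMIs of each zone, 88.2% of all genes were higher in fibrotic spots, with a median shift of 2.11 on the log2 scale, and values below are relative to the neuronal genes and not to that shift. Slc17a7 (-0.14), Fezf2 (-0.22), Bcl11b (0.06) and Lamp5 (0.32) then did not pass. Slc17a7 was at 85.2, 95.1, 62.6 and 70.6 per 1000 pan-neuronal UMIs in the fibrotic spots of the 4 slices and at 99.6, 87.7, 73.5 and 83 in the far spots. Cux2 (1.43), Rorb (1.26), Tle4 (1.14), Cux1 (2.86) and Foxp2 (3.41) were higher on this scale, which for Cux2, Rorb and Tle4 turns the direction, as it turns the sign of Lamp5 and Bcl11b. In near spots, with 60.5% of all genes higher and a median shift of 0.75, Cux2 (1.43), Cux1 (1.52), Lamp5 (1.03) and Rorb (0.76) were higher per neuronal UMI and Bcl11b lower (-0.60), while Slc17a7 (-0.07), Fezf2 (-0.39) and Tle4 (0.04) did not pass.

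**Figure D5:**
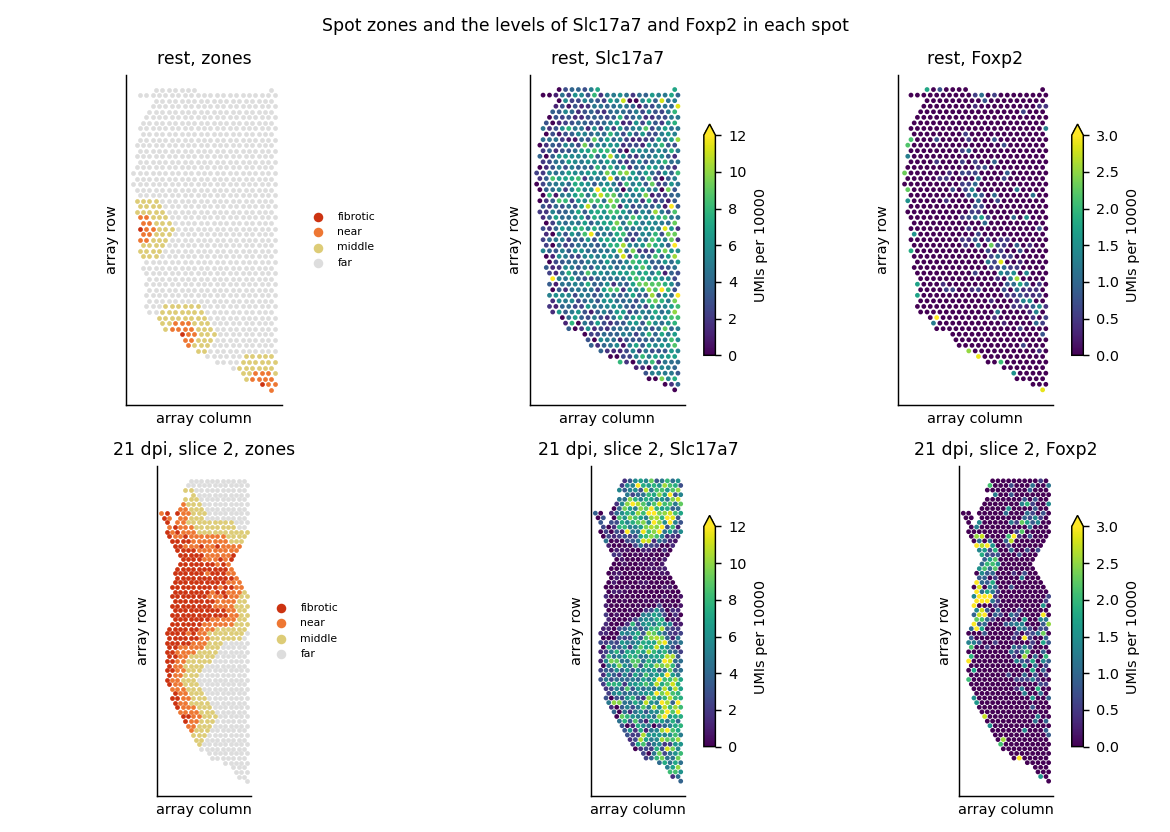
Array positions of the slice at rest and of slice 2 at 21 dpi, one dot per spot, coloured by zone and by the UMIs per 10000 of Slc17a7 and Foxp2. At 21 dpi Slc17a7 is low over the 203 fibrotic spots (0.862 against 7.25 in far spots), where Foxp2 is 0.666 against 0.307.

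Whether these within-slice differences themselves changed between 7 and 21 dpi was tested with the interaction term. For fibrotic against far spots, 0 of 13414 genes passed in edgeR (0%), 1288 had an unadjusted p under 0.05, 1 member among them, and DESeq2 called 34. That member was Slc17a7, whose log2 fold change at 21 dpi minus that at 7 dpi was -1.04 (SE 0.24, edgeR adjusted p = 0.34). The fibrotic level of Slc17a7 was 27.8% and 28.1% of the far level at 7 dpi and 16.7% and 11.9% at 21 dpi. Slc17a7 passed without the filter on low counts (edgeR adjusted p = 0.0091) and without slice 1 at 21 dpi (adjusted p = 0.018, log2 difference -1.30), where the lone 21 dpi slice is assumed to vary as the others do. The pan-neuronal genes had a median of -0.84 in the same term and the GABAergic genes -0.79, with 0 of 9 and 0 of 8 past the threshold in edgeR. For near against far spots 1 of 13085 genes passed (0.00764%), which was no member, and the member with the smallest unadjusted p was Bcl11b (log2 fold change 0.72, SE 0.25, adjusted p = 0.55, in edgeR). The simulated counts gave a recovery of 4% of 2-fold and 61.0% of 4-fold differences for the fibrotic interaction, and of 12.0% and 78.0% for the near interaction. Unchanged genes were called 11 times for the fibrotic and 9 times for the near interaction.

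The genes with the most similar course over 32 sums (8 slices by 4 classes of depth from any edge, 7882 genes compared) were found by the Pearson correlation r of log2-scaled, library-normalised UMI levels. These points share slices, libraries and depth, and r is given as a description. Slc17a7 ran with Pgm2l1 (0.95) and Mapk8ip2 (0.95), and Tle4 with Sez6 (0.87) and Hs3st4 (0.86). Cux2 ran with Rasgrf2 (0.89) and Calb1 (0.82), both on the upper-layer list, Lamp5 with Cbln2 (0.85) and Pknox2 (0.85), and Rorb with Cnih3 (0.80) and Nell1 (0.79). Bcl11b ran with Sema3e (0.87) and Lmo3 (0.87), and Fezf2 with Myl4 (0.82) and Trbc2 (0.81). Cux1 ran with Psme2 (0.76) and Fabp5 (0.75): Psme2 is a subunit of the proteasome activator that interferon induces and Fabp5 a fatty acid-binding protein. Foxp2 ran with Nedd4 (0.79) and Utrn (0.79), a ubiquitin ligase and the dystrophin relative utrophin. The lowest of these 18 correlations was 0.75, for Fabp5.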

How the data were processed

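Spatial gene expression was measured in 8 brain slices on 4 Visium capture areas. The values the authors deposited are raw UMI counts per gene and spot, made with Space Ranger 2.0.0 on mm10, per the labels' processing notes. Their clustering was not used here, and no column was left out of the files. The members and the gene lists were chosen with earlier results of these data known. Connected pieces of tissue were taken as slices. Rings from any edge were counted inward from spots beside an off-tissue position. Rings from the meningeal edge started from edge spots with at least 5 UMIs per 10000 of the leptomeningeal genes, and spots at the border of the array could be among these. Distances were counted as grid steps to the nearest fibrotic spot of the slice (at least 5 Col1a1 UMIs per 10000, with near at 1 or 2 and far at 6 or more). Each spot could hold several cells and was not a replicate, so UMI counts were summed per slice, or per slice and zone with the slice as a block, and tested across slices with edgeR 4.0.16 (quasi-likelihood test, TMM scaling, filterByExpr, Benjamini-Hochberg adjustment over all genes tested, threshold 0.05) in R 4.3.3. DESeq2 1.42.0 was an alternative. The SE of a log2 fold change is its size over the root of its F statistic. The tests were checked on simulated counts with known 2-fold and 4-fold changes, given only to genes above a minimum mean count. Intervals are exact 95% Poisson or conditional binomial intervals and cover counting error only. Alternatives changed the scaling, the count filter, the fibrotic and far definitions, striatal spots, the ring axis and single slices. Genes named beside the members are up to 3 per fixed list with the widest change past the threshold, and for each member the 2 genes closest to it by correlation of log2(UMIs per 1000000 + 10). Promoter windows came from RefSeq GRCm38.p6 and gene positions from GENCODE M21.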

Additional observations from a re-analysis of the deposited data

How the results depend on the processing

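Of 791 tested values of single members under alternatives, 742 stayed on their side of the threshold, 28 moved past it, 14 fell short of it, and 7 changed sign with at least 1 of the 2 values past it. Only the fibrotic over far and near over far comparisons had members past it in the main fit. Elsewhere a value that stayed was an uncalled member that stayed uncalled. For fibrotic over far spots 121 values stayed, 4 moved past it, 5 fell short and 5 changed sign. For near over far spots 117 stayed, 6 moved past it, 9 fell short and 2 changed sign. The 7 sign changes came with scaling to pan-neuronal UMIs: in fibrotic spots Cux2 (1.43), Rorb (1.26), Lamp5 (0.32), Bcl11b (0.062) and Tle4 (1.14), and in near spots Rorb (0.76) and Tle4 (0.043), on the log2 scale. Another 64 values changed sign with neither value past the threshold, 11 of them with neuronal scaling: 4 between 7 and 21 dpi, 5 in the change of the fibrotic difference, 1 in that of the near difference and 1 between outer and inner rings. The 2 dpi to rest ratio turned for Cux1 (0.902), Fezf2 (1.01) and Tle4 (1.07) in spots with at least 5000 UMIs in rings 2 to 6, and for Tle4 per 100 neuronal UMIs (1.51). Bcl11b, whose ratio of 1.02 over all spots also had an interval that spanned 1, was at 0.884 in those spots and 0.562 without striatal spots. The cause was not tested.

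The number of genes past the threshold moved as follows. Between 7 and 21 dpi (6 genes), it was 398 with DESeq2, 267 without the filter on low counts, 615 with neuronal scaling, 13 without striatal spots and 3 in far spots only, and leaving out each slice gave 7 to 335 (335 without slice 1 and 39 without slice 2 at 7 dpi). Between deleter and WT slices (0 genes), it was 12 with DESeq2, 40 without the filter and 0 to 3 with a slice left out. For fibrotic over far spots (7829 genes, 8 members), neuronal scaling gave 11839 genes and 5 members, and rings 2 to 8 from the meningeal edge without slice 2 at 7 dpi gave 5147. Rings 2 to 6 from any edge gave 5900 genes and 9 members for the same zones. For near over far spots (3506 genes, 5 members), it was 7956 with neuronal scaling, 1861 in rings 2 to 8 from the meningeal edge (1824 without slice 2 at 7 dpi), 337 and 1 member in rings 2 to 6, and 1571 to 3002 with a slice left out (1571 without slice 1 and 1726 without slice 2 at 7 dpi). For the change of the fibrotic difference between 7 and 21 dpi (0 genes), it was 34 with DESeq2, 457 and 1 member without the filter, 425 with neuronal scaling, 4 without striatal spots, 7 with far counted from 4 steps, and 0 to 355 with 0 to 1 members when a slice was left out (355 without slice 1 and 11 without slice 2 at 21 dpi). For the change of the near difference (1 gene), it was 26 with DESeq2, 12 without the filter, 17 with neuronal scaling, 0 at 10 Col1a1 UMIs per 10000, 0 in rings 2 to 6 and 0 to 128 with a slice left out (128 without slice 1 and 7 without slice 2 at 21 dpi). For outer over inner rings (0 genes), it was 46 and 2 members with DESeq2, 5 without the filter, 1 without striatal spots, 34 and 1 member with the deleter slices, 561 and 6 members from the meningeal edge (432 and 6 without slice 2 at 7 dpi), 38 with spots near fibrosis kept, and 0 to 5 with a slice left out.

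No paired analysis was possible because no number pairs mice between groups, and the zone comparisons already have the slice as a block. Where leaving out a slice leaves 1 in a group, that slice is assumed to vary like the others. With 2 slices per time point, and time and genotype each held in 1 capture area, neither can be told apart from the area. Members with few UMIs per zone, Fezf2, Foxp2 and Cux2 above all, carry the widest counting error.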
